A study of Mus musculus with 6 samples.

Results

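Chromatin accessibility was examined around 5 genes of proteins that bind actin or act at the border of membrane and actin, namely *Ezr*, *Rdx*, *Msn*, *Nf2* and *Fam107a*, in V1 astrocytes with and without the glucocorticoid receptor (GR). Members were the ATAC-seq peaks whose summit lay in the body of a member gene or within 50 kb of it, by the GENCODE annotation of mm10. This gave 681 summits of 1116429 in the 6 deposited peak lists. The lists held 113, 112 and 116 such summits in GR-con 1, 2 and 3, and 109, 117 and 114 in GR-KO 1, 2 and 3. Summits were joined across libraries into sites of 401 bp, and 95 of the 160874 sites with a summit in at least 2 libraries belonged to the members. *Ezr* had 31 of these sites, *Fam107a* 28, *Nf2* 17, *Msn* 12 and *Rdx* 7, and 66 of the 95 had a summit in all 6 libraries. Of the 681 summits, 528 lay in a site and 153 did not, 128 of them between 201 and 400 bp from the centre of a site.

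All animals were GRfl/fl mice that received a virus at P0 to P1 and were studied at P21. The virus was AAV2/5 with the GfaABC1D promoter and the 4x6T element, and in both groups it also expressed EGFP-KASH, a fluorescent tag of the nuclear envelope, joined through T2A. In the GR-con group (3 libraries) it carried ΔCre, a Cre without recombinase activity, and in the GR-KO group (3 libraries) it carried Cre. Each library came from V1 of 3 to 4 pooled animals, from which 50000 nuclei positive for the DNA dye DRAQ5 and for GFP were sorted, so the libraries are pools and not single mice. The GfaABC1D promoter limits the model to cells in which this fragment of the *Gfap* promoter is active and which the virus reached. The deletion itself cannot be checked in these lists.

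Ezrin, radixin and moesin (the ERM proteins) bind membrane proteins with an N-terminal FERM domain and actin with their C terminus, and are opened by phosphorylation. Ezrin is known as a protein of the fine peripheral processes of astrocytes. Merlin, the product of *Nf2*, shares the FERM domain but is best known as a growth suppressor acting through the Hippo pathway. *Fam107a* (DRR1) encodes a small actin-binding and actin-bundling protein of astrocytes and neurons, and is known as a gene induced by stress and glucocorticoids. GR binds DNA as a dimer at a palindrome of hexamers such as AGAACA, and accessible DNA around such a palindrome is where its binding is usually found.

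The sequences that the results below turn on are printed here from the GRCm38 (mm10) reference, 151 bp around the site centre on the plus strand. They are the site at the inner start of *Fam107a*, an intronic site 2500 bp inside the gene from there, a site just beyond the 3′ end of *Fam107a*, and the sites of lower signal near *Ezr* and *Rdx*. Capitals mark matches to the GR palindrome, its arm AGAACA, the NFI arm TTGGCA, AP-1 (TGANTCA) or ACTGTA, on either strand.
Fam107a inner start, chr14:8309840-8309990: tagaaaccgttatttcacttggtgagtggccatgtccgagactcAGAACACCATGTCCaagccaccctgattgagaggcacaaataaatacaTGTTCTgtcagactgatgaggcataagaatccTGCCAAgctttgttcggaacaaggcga
Fam107a intron, chr14:8307202-8307352: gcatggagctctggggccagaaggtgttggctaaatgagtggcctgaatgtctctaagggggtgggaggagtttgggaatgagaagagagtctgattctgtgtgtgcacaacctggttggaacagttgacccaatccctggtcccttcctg
Fam107a 3′ flank, chr14:8295737-8295887: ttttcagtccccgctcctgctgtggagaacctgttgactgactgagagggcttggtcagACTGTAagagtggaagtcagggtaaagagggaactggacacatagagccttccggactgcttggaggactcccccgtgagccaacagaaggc
Ezr upstream, chr17:6808933-6809083: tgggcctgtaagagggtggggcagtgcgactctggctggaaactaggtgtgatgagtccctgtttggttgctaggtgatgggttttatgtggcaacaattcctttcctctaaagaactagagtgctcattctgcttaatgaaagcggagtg
Rdx downstream, chr9:52105578-52105728: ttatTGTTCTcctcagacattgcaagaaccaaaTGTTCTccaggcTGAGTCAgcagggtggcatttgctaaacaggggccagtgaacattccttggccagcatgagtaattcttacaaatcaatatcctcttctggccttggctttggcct
The *Fam107a* inner start held a GR palindrome together with 2 matches to its arm, 1 of which overlaps the palindrome, and an NFI arm. The *Rdx* downstream sequence held 2 arms and an AP-1 match. The *Ezr* upstream and *Fam107a* intron sequences held none of the letters searched, which says nothing about binding there.

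Each peak carries a −log10 p and a fold, both relative to the local background of its own library. Solving the 2 numbers together returned the reads piled up at the summit and the local background, and every solved pileup lay within 0.05 of a whole number. The genome-wide background was 4.29, 4.31 and 4.92 reads in GR-con 1, 2 and 3 and 4.54, 4.28 and 4.34 in GR-KO 1, 2 and 3, and the lists held 179462 to 198929 summits. Promoters of all 8 astrocyte markers (*Gfap*, *Aqp4*, *Slc1a3*, *Slc1a2*, *Aldh1l1*, *S100b*, *Gja1*, *Sox9*) had a peak in every library, with a summed pileup of 2837 to 2871 reads in GR-con and 2927 to 2986 in GR-KO. Both markers of oligodendrocyte precursors, *Pdgfra* and *Cspg4*, also had a peak in every library, with sums of 396 to 439 reads in GR-con and 349 to 383 in GR-KO. Sums were low for neurons (5 genes, 2 with a peak in all libraries, 57 to 105 and 79 to 106 reads), microglia (4 genes, 2 in all libraries, 66 to 99 and 76 to 115) and endothelium (3 genes, 1 in all libraries, 16 to 23 and 29 to 39). For oligodendrocytes, 3 of 4 genes had no peak in any library. In sorted bulk nuclei, fewer cells with an open site and less open chromatin per cell cannot be told apart, and the part of these marker differences in the results below was not tested.

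The first question was whether the loss of GR changed accessibility at these genes. Within each library the sites were ranked by −log10 p, with sites that had no summit there tied lowest. The ranks were compared between conditions (limma, Benjamini-Hochberg adjustment over all 160874 sites). At sites absent from some libraries, the score difference and its standard error thus rest partly on assigned ranks. Of the 95 member sites, 3 were lower in GR-KO and 2 higher at an adjusted p under 0.05, where 0.839% and 0.764% of all sites were. The lower sites lay at the inner start of *Fam107a*, upstream of *Ezr* and downstream of *Rdx*, and both higher sites lay in *Fam107a* introns. By the rank of the fold, 1 member site was lower, the one downstream of *Rdx*, and 0 were higher, against 0.127% and 0.0615% of all sites. For the 66 member sites with a summit in every library the pileup itself was compared on a log2 scale, scaled by the genome-wide background. There, 7 sites were lower and 0 higher in GR-KO, against 3.93% and 1.97% of the 99768 such sites. This set leaves out both sites that ranked higher in GR-KO, because they lacked a summit in GR-con libraries, so it does not test them. Scaled by the median over sites, 6 were lower and 0 higher, against 2.62% and 4.68%. The median of all sites was −0.05 with the first scaling and 0.04 with the second. Leaving out any 1 library, a comparison chosen after seeing the data, 5 to 9 member sites were lower by background-scaled pileup and 0 higher. Over all 99768 sites 2171 to 4448 were then lower and 1184 to 1706 higher, and the 9 and the 4448 both came without GR-con 3. By −log10 p rank, leaving out a library cut the calls over all sites from 1350 lower and 1229 higher to 181 to 816 lower and 202 to 384 higher, so the loss of a rank call with 5 libraries is not particular to a site.

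**Figure D1:**
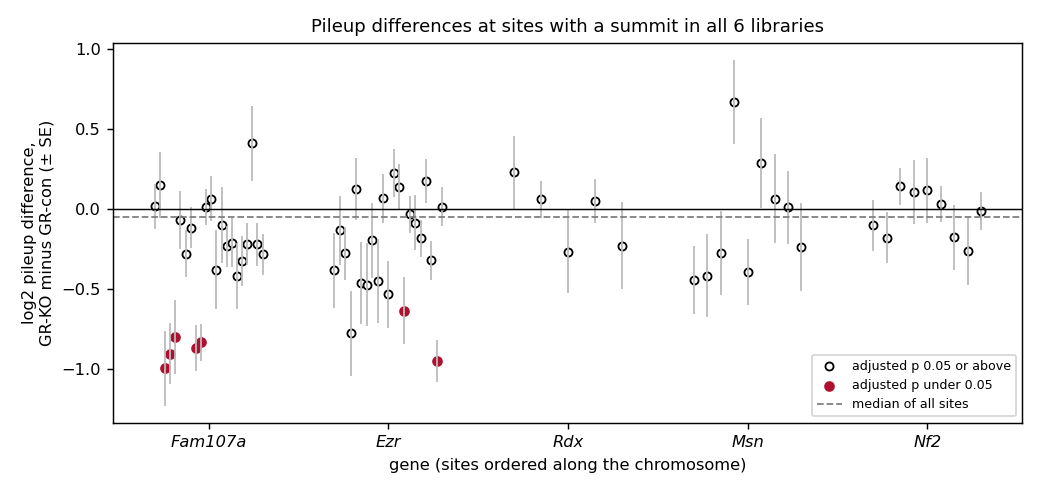
Log2 difference in summit pileup, GR-KO minus GR-con, at the 66 member sites with a summit in all 6 libraries, by gene and in chromosomal order; bars are standard errors, filled points have an adjusted p under 0.05, and the dashed line is the median of all sites. The 7 filled points are 5 sites of *Fam107a* and 2 of *Ezr*, all between −0.999 and −0.64.

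*Fam107a* stood out among the members by how much of the locus was lower. Of its 22 sites with a summit in every library, every GR-con pileup, scaled by the genome-wide background, exceeded every GR-KO pileup at 11 (50%), against 13.7% of all such sites. The opposite order was found at 1 site, against 7.22%. The 22 sites do not include those that ranked higher in GR-KO. For the other members the count was 4 of 21 for *Ezr*, 1 of 9 for *Msn*, 0 of 5 for *Rdx* and 0 of 9 for *Nf2*. The opposite order was found at 2 of 9 sites for *Msn* and at 0 for *Ezr*, *Rdx* and *Nf2*. Sites of a locus are neighbours and not independent of each other, so these shares are a description.

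The annotated transcripts of *Fam107a* begin at an outer start (chr14:8318023, minus strand) and at a cluster of inner starts 8228 to 8246 bp further on. No site lay within 1000 bp of the outer start, and the promoter site (chr14:8309715-8310115, in the first intron of the long transcript) was centred 120 bp before the nearest inner start. Its pileup was 695, 676 and 453 reads in GR-con 1, 2 and 3, and 361, 298 and 324 in GR-KO 1, 2 and 3. All GR-KO libraries were below all GR-con libraries, with GR-con 3 closest to them. The mean was 608 ± 135 reads in GR-con and 328 ± 31.7 in GR-KO (SD, n = 3 each). The log2 pileup differed by −0.83 (standard error 0.12, limma, adjusted p = 4.73e-10), and the −log10 p rank score by −0.54 (standard error 0.10, limma, adjusted p = 0.00934). These standard errors draw on the spread of other sites and do not measure the spread of these libraries alone. Without the variance trend the rank score was not called (limma, adjusted p = 0.344), and the pileup was not fitted without it. Leaving out any 1 library, the pileup difference was −1.10 to −0.69 and was called each time, whereas the rank score was called only with all libraries or without GR-con 3, with adjusted p of 0.0561 to 0.219 without each of the others.

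The summit itself lay elsewhere in the 2 conditions. The GR palindrome of this site occupies chr14:8309885-8309897, and the GR-con summits were 24, 34 and 6 bp from its middle. The GR-KO summits were 121, 122 and 87 bp away, on the side of the nearest inner start, which is 96 bp from the palindrome. The mean distance was 21.3 ± 14.2 bp in GR-con and 110 ± 19.9 bp in GR-KO (exact permutation test, two-sided, p = 0.1, the smallest that 3 against 3 libraries can give). The palindrome was found by a search within 100 bp of the site centre, and that centre was itself a GR-con summit. The nearness of the GR-con summits to the palindrome was thus partly set by the search, and this p-value does not test that nearness. The summit positions themselves do not depend on the palindrome. Summits of the conditions that did not overlap and lay at least 100 bp apart on average, a limit set after these positions were seen, occurred at 0.36% of the sites with a summit in all libraries. Among the member sites there were 2, both of *Fam107a*.

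**Figure D2:**
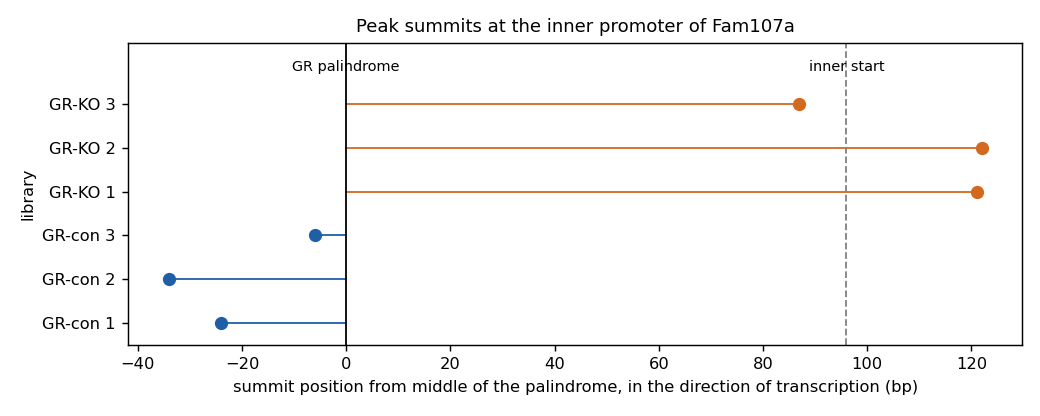
Position of the peak summit of each library at the inner promoter of *Fam107a*, in bp from the middle of the GR palindrome (solid line) in the direction of transcription; the dashed line is the nearest inner start. The 3 GR-con summits lie 6 to 34 bp from the palindrome and the 3 GR-KO summits 87 to 122 bp from it, around the inner start. The palindrome was searched for around the site centre, which is a GR-con summit.

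Only 1 of the 95 member sites held the GR palindrome (G, any base, ACA, 3 bases of any kind, TGT, any base, C) within 100 bp of its centre, this one, against 0.643% of all sites. Within 200 bp there was a second, 10.6 kb inside *Ezr* (chr17:6772033-6772045), with summits of 30, 26 and 38 reads in GR-KO and 41 reads in GR-con 3 but none in GR-con 1 and 2. Its score difference was 0.65 (standard error 0.34, limma, adjusted p = 0.422) and its sign changed when a peak was matched by its interval. The arm AGAACA was found at 17 of 95 member sites (17.9%) and 17.4% of all sites, TTGGCA at 20 (21.1%) and 20.8%, TGANTCA at 7 (7.37%) and 6.27%, and ACTGTA at 7 (7.37%) and 7.82%. The member sites as a group thus carried these letters about as often as all sites did.

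Lower signal at *Fam107a*, by pileup only, was also found at 4 sites between the inner start and just beyond the 3′ end. In the intron 10.7 kb from the outer start, the site whose sequence is shown above had 160, 182 and 195 reads in GR-con and 96, 87 and 103 in GR-KO. The log2 difference was −0.87 (standard error 0.14, limma, adjusted p = 3.76e-07). A site in the 3′ UTR, 21.5 kb from the outer start, had 65, 64 and 53 reads in GR-con and 39, 32 and 31 in GR-KO (log2 difference −0.80, standard error 0.23, limma, adjusted p = 0.0166). It lost its call without GR-con 1, GR-con 2 or GR-KO 3 (adjusted p = 0.131, 0.108 and 0.0730). The 3′ flank, 22.2 kb from the outer start, had 89, 100 and 101 reads in GR-con and 57, 39 and 57 in GR-KO (log2 difference −0.91, standard error 0.19, limma, adjusted p = 0.000216). Next to it, 22.7 kb from the outer start, 63, 73 and 63 reads in GR-con compared with 27, 29 and 43 in GR-KO (log2 difference −0.999, standard error 0.23, limma, adjusted p = 0.000988). At each of these 4 sites the pileups of the conditions did not overlap. None of the 4 passed the test by −log10 p rank (limma, adjusted p = 0.301, 0.873, 0.452 and 0.611 in the order given) or by fold rank, where the score differences were −0.03, 0.13, 0.02 and 0.06.

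Not all of the locus was lower. The other strong site of the gene, 3.9 kb inside the long transcript, had 589, 674 and 495 reads in GR-con and 617, 561 and 540 in GR-KO, and the conditions overlapped (log2 difference 0.01, standard error 0.11, limma, adjusted p = 0.978). It lies between the outer and inner starts. Between the lower sites, at 12.8 kb, there were 220, 189 and 220 reads in GR-con and 172, 190 and 203 in GR-KO, which overlapped. Next to it, at 13.7 kb, 141, 120 and 146 reads in GR-con compared with 116, 109 and 101 in GR-KO without overlap, and the difference did not pass the test (log2 difference −0.28, limma, adjusted p = 0.312). At 3.3 kb there were 141, 137 and 129 reads in GR-con and 132, 139 and 144 in GR-KO. Beyond the 3′ end, sites 59.6 and 62.5 kb from the outer start had 47 to 65 and 119 to 152 reads in GR-con, and 54 to 68 and 106 to 167 in GR-KO, and lie near *Acox2*, a peroxisomal oxidase gene. Upstream of the outer start, every GR-con pileup scaled by the genome-wide background exceeded every GR-KO one at 5 of the 10 sites with a summit in all libraries. The share was 13.7% of all such sites. An example lay at 11.8 kb, with 208, 214 and 206 against 172, 175 and 174 reads before scaling. None of these passed the test. The 1 site of the gene with the opposite order also lay upstream and did not pass.

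**Figure D3:**
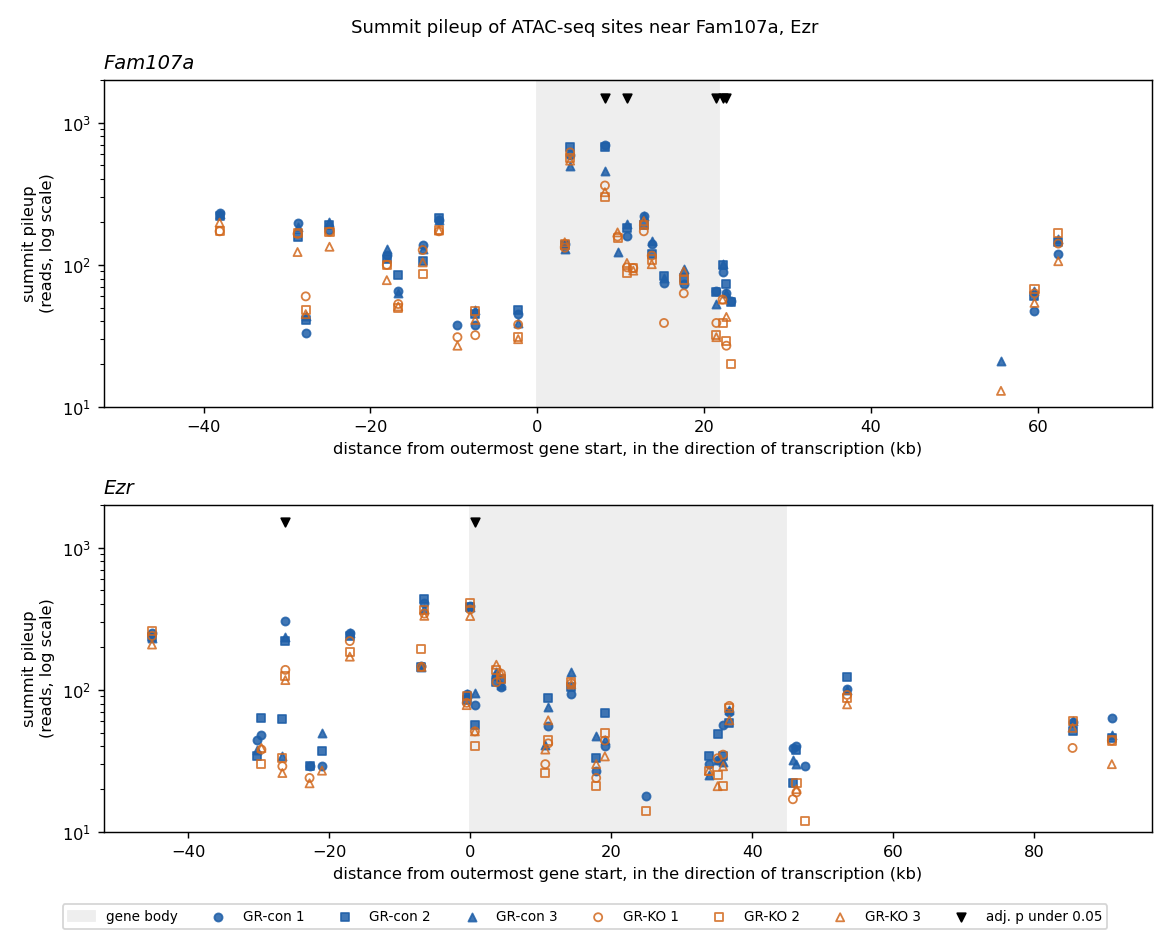
Summit pileup (reads, log scale) in each library at every site of *Fam107a* (top) and *Ezr* (bottom), against the distance from the outermost gene start in the direction of transcription; filled blue symbols are GR-con, open orange symbols GR-KO, the grey band is the gene body, and triangles at the top mark sites with an adjusted p under 0.05 by pileup. In *Fam107a* the marked sites run from the inner start at 8.1 kb to 22.7 kb, and in *Ezr* they lie 26.2 kb upstream and 0.7 kb inside the gene.

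The local background, which is averaged over a wider window that neighbouring sites share, was also lower across *Fam107a*. At the inner start it was 95.3, 100.0 and 93.3 reads in GR-con and 70.1, 68.4 and 69.6 in GR-KO. In the intron 10.7 kb from the outer start it was 73.2, 76.6 and 74.5 reads in GR-con and 45.8, 46.0 and 46.0 in GR-KO. After scaling by the genome-wide background, every GR-con value exceeded every GR-KO value at 20 of the 22 sites of *Fam107a*, against 20% of all sites with a summit in every library. The count was 13 of 21 for *Ezr*, 6 of 9 for *Msn*, 1 of 5 for *Rdx* and 2 of 9 for *Nf2*, and the opposite order occurred at 0 of the 66 member sites (5.7% of all). This comparison was chosen after seeing the data. The window holds the reads of the peaks themselves, so the background is not independent of the pileups. Because the fold divides the pileup by this background, the fold at the inner start fell less far, from 7.23, 6.70 and 4.81 in GR-con to 5.09, 4.31 and 4.61 in GR-KO, and did not pass the test (limma, adjusted p = 0.532).

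The same background sets the pileup that a peak needed to be listed, which was read at the 2 *Fam107a* sites that ranked higher in GR-KO. At 9.6 kb from the outer start, GR-KO had 158, 155 and 169 reads, GR-con 3 had 123, and GR-con 1 and 2 had no summit (score difference 1.58, standard error 0.27, limma, adjusted p = 0.00306). At the background of the nearest GR-con 1 and 2 summits, 73.2 and 76.6 reads, a pileup of 94 and 98 was needed to reach the authors' p threshold of 0.01. At that background, a pileup at the GR-KO level would have been listed in GR-con 1 and 2. At 11.5 kb, GR-KO had 95, 95 and 91 reads and no GR-con library had a summit (score difference 1.21, standard error 0.30, limma, adjusted p = 0.0472). This was the only member site with a peak in all GR-KO and no GR-con library, against 0.622% of all sites. There a pileup of 94, 98 and 95 reads was needed in GR-con 1, 2 and 3, so a pileup at the GR-KO level would have been at or near the limit of listing, and the lists do not show that the pileup differed. The call at 11.5 kb was lost on leaving out any 1 library (adjusted p of 0.119 to 0.154), and the call at 9.6 kb on leaving out any library but GR-con 3, without the variance trend (0.0851) and with peaks that cover over 200 bp of the site (0.0566).

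*Ezr*, which encodes ezrin, was lower at a distal site, while its promoter did not pass the test. The site lay 26.2 kb upstream (chr17:6808808-6809208, intergenic), and its pileup was 304, 222 and 234 reads in GR-con and 138, 125 and 117 in GR-KO. The conditions did not overlap, and the mean fell from 253 ± 44.3 to 127 ± 10.6 reads (SD, n = 3 each). The log2 pileup differed by −0.95 (standard error 0.13, limma, adjusted p = 2.49e-10; −1.07 to −0.78 on leaving out any 1 library, called each time), and the rank score by −0.44 (standard error 0.07, limma, adjusted p = 0.00179; 0.0577 without GR-con 1). The local background fell as well, from 17.0, 15.1 and 15.1 reads in GR-con to 10.3, 8.87 and 9.09 in GR-KO. The fold was 17.0, 13.9 and 14.6 in GR-con and 12.3, 12.8 and 11.7 in GR-KO, and its rank did not pass the test (limma, adjusted p = 0.293).

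A weaker *Ezr* site 30.2 kb upstream was the only member site with a peak in all GR-con and no GR-KO library, against 1.15% of all sites. It had 44, 34 and 38 reads in GR-con, where the GR-KO lists needed 16, 16 and 15 reads for a peak. The nearest summits of GR-KO 2 and GR-KO 3 were 314 and 242 bp from its centre, not far outside the matching limit of 200 bp, and no wider limit was tried. No GR-KO peak interval covered its centre either. Its rank score did not pass the test (difference −0.92, standard error 0.30, limma, adjusted p = 0.153), but did without the variance trend (0.0199). At the *Ezr* promoter, centred 10 bp before the start, the pileup was 387, 384 and 382 reads in GR-con and 367, 405 and 330 in GR-KO. The conditions overlapped (log2 difference −0.03, standard error 0.12, limma, adjusted p = 0.930). A site 0.7 kb inside the gene had 78, 57 and 95 reads in GR-con and 51, 40 and 51 in GR-KO (log2 difference −0.64, standard error 0.21, limma, adjusted p = 0.0416), and it kept its call only without GR-con 2 and lost it with the median scaling (0.0928). Between the promoter and these upstream sites, 17.1 kb before the start, 249, 237 and 249 reads in GR-con compared with 220, 185 and 171 in GR-KO without overlap, and the difference did not pass the test. The site 45.1 kb upstream had 249, 235 and 231 reads in GR-con and 239, 259 and 208 in GR-KO, which overlapped.

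**Figure D4:**
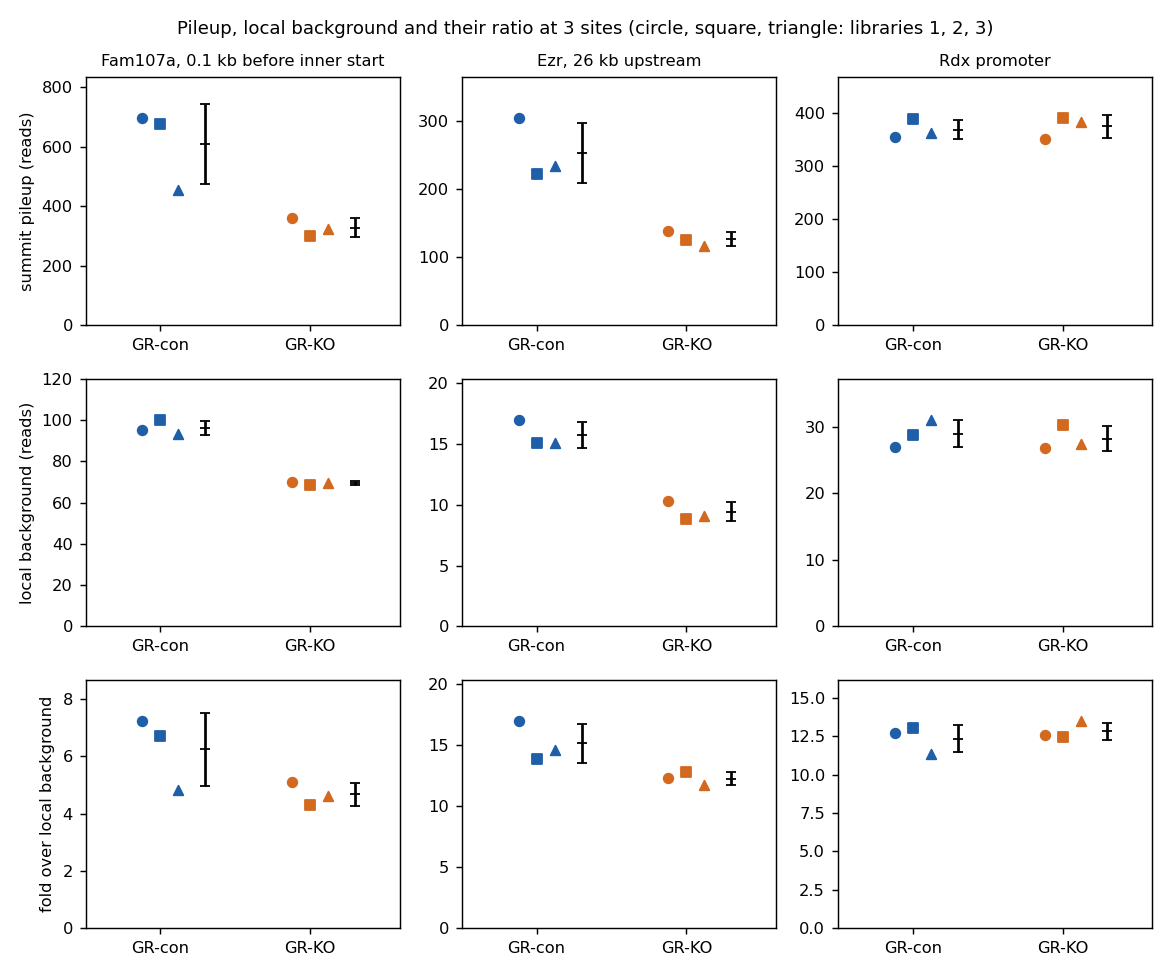
Summit pileup (reads), local background (reads) and fold over that background at the inner start of *Fam107a*, 26 kb upstream of *Ezr* and at the *Rdx* promoter; symbols are the 3 libraries of each condition and bars the mean and SD. At the first 2 sites both pileup and local background are lower in every GR-KO library, and at the *Rdx* promoter the conditions overlap in all 3 measures.

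*Rdx*, which encodes radixin, had the member site with the lowest score difference, and it was nearer to another gene. The site (chr9:52105453-52105853, intergenic) lay 16.9 kb beyond the 3′ end of *Rdx* and 5.7 kb from *Zc3h12c*, a gene of a CCCH zinc finger protein. It had 66, 73 and 50 reads in GR-con, 14 in GR-KO 2, and no summit in GR-KO 1 and 3, where a pileup of 13 and 11 reads was needed at the background of the nearest summit. The rank score differed by −1.61 (standard error 0.25, limma, adjusted p = 0.00169), and the fold rank passed the test as well (−1.74, limma, adjusted p = 0.0463). The call by −log10 p was lost without GR-con 1 or GR-con 2 (adjusted p = 0.0925 and 0.0959), while by fold the test called only 0 to 3 sites in all once a library was left out and could not check this site. The lists do not tie this site to either gene.

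The *Rdx* promoter site, over the start of its shorter transcripts, had 354, 388 and 362 reads in GR-con and 350, 389 and 383 in GR-KO. The values overlapped (log2 difference 0.06, standard error 0.12, limma, adjusted p = 0.864). At a site 430 bp inside the outer start, GR-KO had 68, 71 and 59 reads, GR-con 1 and 2 had 53 and 49, and GR-con 3 had no summit, a difference that did not pass the test (limma, adjusted p = 0.275). A downstream site 51.6 kb from the start had 161, 137 and 151 reads in GR-con and 174, 143 and 137 in GR-KO, with overlap.

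*Msn*, which encodes moesin and lies on the X chromosome, had the weakest promoter site of the members. Its promoter site, centred 45 bp before the start, had 64, 69 and 65 reads in GR-con and 57, 41 and 45 in GR-KO. The conditions did not overlap there, but the difference did not pass the test (log2 difference −0.45, standard error 0.21, limma, adjusted p = 0.243). The opposite order was found at 2 sites, 1 of them 17.3 kb inside the gene. That site had 24, 20 and 26 reads in GR-con and 40, 40 and 29 in GR-KO (log2 difference 0.67, standard error 0.26, limma, adjusted p = 0.123). Over all X-linked sites the median log2 pileup was below that of autosomes by −0.40 to −0.37 in GR-con and −0.37 to −0.32 in GR-KO, ranges that meet.

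*Nf2*, the merlin gene, showed no called site, and the conditions overlapped at all 9 of its sites with a summit in every library. Its promoter site, centred 72 bp before the outermost start, was the strongest of all member sites, with 656, 686 and 645 reads in GR-con and 692, 675 and 614 in GR-KO (log2 difference 0.03, standard error 0.11, limma, adjusted p = 0.939). An intronic site 46.4 kb from the start had 535, 481 and 471 reads in GR-con and 558, 539 and 500 in GR-KO, which overlapped. Of its 17 sites, 3 lay within 500 bp of a start of the neighbours *Nipsnap1* and *Thoc5*. The standard error at the *Nf2* promoter was 0.11 on the log2 scale, and a difference has to be several times its standard error to pass the test over all sites.

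**Figure D5:**
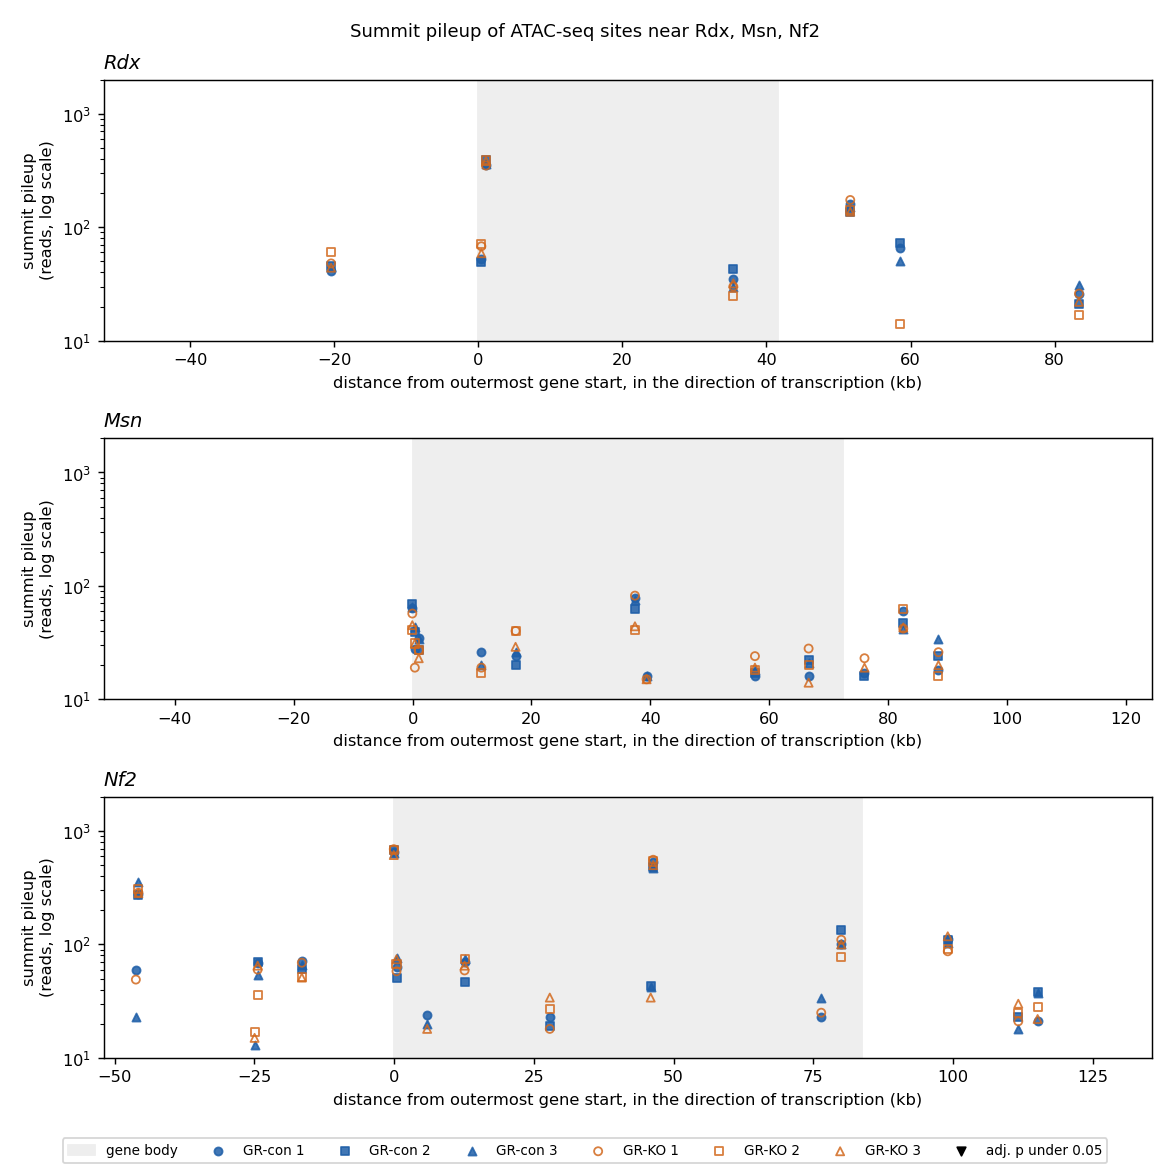
Summit pileup (reads, log scale) in each library at every site of *Rdx*, *Msn* and *Nf2*, against the distance from the outermost gene start in the direction of transcription; symbols are as in the plot of *Fam107a* and *Ezr*. GR-con and GR-KO symbols overlap at the promoters of *Rdx* and *Nf2*, and at 58.5 kb in *Rdx* only 1 GR-KO library has a summit, of 14 reads.

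The number of summits per gene did not separate the conditions. *Ezr* had 39, 42 and 42 summits in GR-con and 38, 40 and 36 in GR-KO, a difference of −3.00 (exact permutation test, two-sided, p = 0.2). *Fam107a* had 33, 30 and 29 in GR-con and 30, 32 and 32 in GR-KO (exact permutation test, p = 0.9), although the pileup was lower at some of its sites. *Rdx* had 10, 10 and 10 against 9, 14 and 12 (exact p = 0.4), *Msn* 15, 12 and 15 against 16, 12 and 16 (exact p = 0.6), and *Nf2* 16, 18 and 20 against 16, 19 and 18 (exact p = 1). With 3 against 3 libraries no p under 0.1 is possible.

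Genes that act with the members were read from lists, by the same −log10 p rank. Around the 10 partners and kinases of the ERM proteins, 2 of 258 sites were lower and 3 higher (0.775% and 1.16%, near the 0.839% and 0.764% of all sites). Around 11 Hippo genes, 2 of 321 sites were lower and 2 higher (0.623% each), and around 5 FERM and Fam107 relatives 0 of 167 were lower and 1 higher (0.599%). The median score difference was 0.014, 0.0066 and 0.011, beside 0.0057 for all sites. So the lists as wholes were called about as often as all sites.

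Single sites in these lists are named here because they passed the test, and their calls were not read with a library left out. *Stk10* encodes LOK, a kinase that phosphorylates ERM proteins, and its 3′ UTR site (chr11:32623177-32623577) had 160, 163 and 130 reads in GR-con and 35, 25 and 33 in GR-KO (score difference −1.16, standard error 0.11, limma, adjusted p = 1.28e-05). A site 8.6 kb upstream of *Sav1*, the scaffold of the Hippo kinases, had 92, 79 and 85 reads in GR-con and 36, 24 and 32 in GR-KO (limma, adjusted p = 0.000696). An intron of *Wwc1*, whose product KIBRA acts with merlin, had 161, 139 and 149 reads in GR-con and 51, 56 and 60 in GR-KO (limma, adjusted p = 0.0010). In each of these 3 the conditions were far apart. Near *Slc9a3r1*, which encodes the ERM-binding scaffold NHERF1, the lower site lay in an intron of *Rab37* and had 115, 97 and 125 reads in GR-con and no summit in GR-KO (limma, adjusted p = 0.0237). By fold rank the *Stk10* and *Sav1* sites passed as well (limma, adjusted p = 0.0286 and 0.0279). The *Wwc1* and *Slc9a3r1* sites did not (limma, adjusted p = 0.122 and 0.379).

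Sites that ranked higher in GR-KO differed by less. An intron of *Wwtr1*, which encodes the Hippo effector TAZ, had 205, 210 and 178 reads in GR-con and 299, 265 and 263 in GR-KO (limma, adjusted p = 0.0210). An intron of *Grm3*, a glutamate receptor gene of astrocytes, had 237, 219 and 194 reads in GR-con and 308, 331 and 283 in GR-KO (limma, adjusted p = 0.0145). The other higher sites were a further *Grm3* intron, introns of *Stk4* and *Epb41*, and a site in an intron of *Slc1a2* counted for *Cd44*. None of these higher sites passed by fold rank. By fold rank alone, a second *Stk10* site (chr11:32625681-32626081) was higher (score difference 0.81, limma, adjusted p = 0.0118). It had 148, 138 and 123 reads in GR-con and 143, 128 and 140 in GR-KO, which overlapped.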

How the data were processed

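ATAC-seq peak lists from 3 GR-con and 3 GR-KO libraries were analysed. The authors mapped reads to mm10 and called peaks at a p threshold of 0.01 in each library separately, with version 2.2.0 of the ATAC-seq pipeline of ENCODE (multimapping set to 0, adapters found automatically). The deposited lists give for each summit a fold, a ratio over the local background, and the −log10 of its p-value and q-value; a deposited score was not used. Intervals can hold several summits. No read counts were used here, so depth is known only through the solved background.

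The member genes, lists and comparisons were chosen with earlier results of these data known. Sites of 401 bp were placed around summits by rank, and a library had a peak where a summit lay within 200 bp of the centre. The methods name a count test, which these lists cannot feed. Normal scores of within-list ranks were therefore compared by limma (version 3.58.1, R 4.3.3), two-sided, allowing a variance trend and adjusting by Benjamini-Hochberg. Sites without a peak in a library were tied at its lowest rank. Summit pileup and local background were solved from fold and −log10 p under a Poisson model, and log2 pileups were compared likewise. The standard errors of these fits draw on the spread of all sites, and pileup was not fitted without the variance trend. Tests on simulated data for GR-KO against GR-con over 160874 sites called 111 of 200 sites shifted by 1.5 scores, with 4 false calls, for −log10 p, and 77 with 2 false calls for the fold. For pileup over 99768 sites, 89 of 200 sites shifted by 1 on the log2 scale were called with 1 false call. The simulated noise was independent between sites and held no tied lowest ranks. The shift of 1.5 exceeded the score differences called at the *Fam107a* inner start and upstream of *Ezr* (−0.54 and −0.44). These rates therefore do not carry over to the sites reported. Python 3.11.15, scipy 1.17.1, numpy 2.4.6, pandas 2.3.3 and pysam 0.24.0 were used, with GENCODE vM21 genes.

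Sites were named by rule: the promoter site within 1000 bp of a start, the lowest and highest score difference of each gene, sites in 1 condition only, called sites, and sites with the GR palindrome. Other sites were named after their values were seen. Markers were read within 500 bp of a start. Same-numbered libraries did not deviate together (r = 0.031, −0.0072 and 0.026), so no block was used. Replicates are pools of animals.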

Additional observations from a re-analysis of the deposited data

How the results depend on the processing

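By −log10 p rank, 3 member sites were lower and 2 higher in GR-KO. The lower count became 0 when a peak had to cover over 200 bp of the site, 1 within 10 kb of the gene body, 6 by pileup scaled by the median, 7 by pileup scaled by background, and 0 to 3 without 1 library. It was 0 without GR-con 1 and 1 without GR-con 2, where all sites gave 183 and 181 lower calls in place of 1350, and over 200 bp covered gave 497, so the drop is not particular to the members. The higher count became 1 with equal lists, with an interval over the centre, with the replicate block and without a variance trend, 0 with over 200 bp covered, and 0 to 1 without 1 library. It was also 0 with summits in all libraries and by either pileup scaling, which leave out both higher sites and so do not test them. By fold rank, the 1 lower call became 0 with an interval over the centre, over 200 bp covered, summits in all libraries, the replicate block or a window of 10 kb, and 0 on leaving out any 1 library, but 2 lower and 1 higher without a variance trend. Over all sites the fold test called 204 lower and 99 higher, but 0 with the block, 0 to 3 with 5 libraries, and 1073 and 769 without the trend, so the member counts in these settings say nothing of the members' stability. With over 200 bp covered the member call was lost although more sites were called (445 and 242 over all sites). Summits in all libraries leave the called *Rdx* site out and do not test it. Without the trend the calls at the *Ezr* upstream site, the *Fam107a* inner start and 9.6 kb in *Fam107a* were lost (adjusted p = 0.177, 0.344 and 0.0851). With over 200 bp covered, these 3 and the *Rdx* downstream site gave 0.100, 0.251, 0.0566 and 0.0545, and with an interval over the centre the *Fam107a* inner start gave 0.102. The cause was not tested. Sites only in GR-con numbered 2 with a q-value limit of 0.01 and 0 within 10 kb (1 to 3 without 1 library); only in GR-KO, 0 with over 200 bp covered (1 to 3 without 1 library). Summit counts per gene had no call to lose. The difference changed direction or became 0 for *Nf2* (0 at that q-value limit, 0.33 with lists of equal length, 0.67 within 10 kb, −1.33 to 0.67 without 1 library), *Fam107a* (−1.33 at that limit, −0.17 to 1.83 without 1 library) and *Msn* (0 within 10 kb, −0.33 to 2 without 1 library). Within 200 bp, motif counts rose to 2, 32, 31 and 17 for the GR palindrome, its arm, the NFI arm and ACTGTA, beside 1.01%, 30.6%, 29.6% and 16.0% of all sites in that wider window. Score differences that changed sign were at the *Ezr* intron with the palindrome (−0.46 with an interval over the centre, −0.18 with over 200 bp covered), the *Nf2* promoter (0.12 and 0.0302 by pileup scaled by the median and by background), the *Ezr* promoter (−0.0343 by background-scaled pileup, −0.0236 to 0.0759 without 1 library, lowest without GR-KO 2) and *Msn* 381 bp inside the gene (−0.266 to 0.00557 without 1 library, highest without GR-KO 1); none had been called. The replicate block ended the call at 11.5 kb in *Fam107a* (adjusted p = 0.105) and the fold call downstream of *Rdx*, and no other rank call at a member site. It was not read at the sites of the other lists, and over all sites it left 726 lower and 523 higher calls by −log10 p rank. Depth limits the lists to pileups past the p threshold.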
